A study of Homo sapiens with 12 samples.

Results

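NPPC, SYT4, LDOC1, OTUD3, CDR2L, NUAK2, LRP5L and NWD1 are 8 of the 63299 genes counted in LNCaP prostate cancer cells in which the arginine methyltransferase PRMT5 was knocked down. They were chosen from these data because their counts were higher after the knockdown in cells that were not irradiated, so their values in that comparison are given as a description with no test. LNCaP is an established line grown from a lymph node metastasis of a prostate carcinoma, and LNCaP-shPRMT5 denotes LNCaP cells that carry a short hairpin RNA against PRMT5 switched on by doxycycline. The 12 RNA libraries formed 4 groups of 3. Irradiated knockdown cells received doxycycline and 2 Gy, irradiated controls received 2 Gy alone, non-irradiated knockdown cells received doxycycline alone, and non-irradiated controls received neither. Doxycycline was given at 1 µg/mL every 48 h, and irradiated cells were harvested 24 h after the dose. All 4 groups carry the hairpin construct, and induction always came with doxycycline, so the effects of the drug and of PRMT5 loss cannot be told apart. The labels do not say whether the line is a clone or whether the replicates were separate cultures, so each p-value measures the spread between these libraries, which may be technical.

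PRMT5 is an enzyme that dimethylates arginines symmetrically, on histones and on the Sm proteins of the spliceosome among other targets, and its loss can alter both transcription and splicing. The 8 genes belong to no single pathway. NPPC and SYT4 act in secretion, as a peptide precursor and a vesicle membrane protein. OTUD3 removes ubiquitin from proteins and NUAK2 is a protein kinase. LDOC1 and CDR2L have known links to cancer or to an immune disorder that accompanies cancer, LRP5L is a short relative of a Wnt co-receptor, and NWD1 is a nucleotide-binding repeat protein.

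PRMT5 RNA averaged 27.7 ± 3.29 CPM (counts scaled to the same library total) in irradiated knockdown cells and 201.5 ± 25.0 CPM in irradiated controls (SD, n = 3 each), a log2 fold change of -2.86 (SE 0.13, edgeR adjusted p = 1.2e-06). It averaged 30.1 ± 3.17 CPM in non-irradiated knockdown cells and 191.5 ± 5.76 CPM in non-irradiated controls. Of its exon bases, 27.1% also lie in an antisense gene, and the strand setting of the counting is not given in the sources used here. Total counts ran from 14801939 to 33158865 per library, and a count of 3, the limit that a count of 0 allows, was worth at most 0.203 CPM, for counting error only. The labelled cell type matched its markers: 10 luminal prostate genes summed to 6937 CPM or more in every library, whereas 8 basal epithelial markers summed to at most 27.9 CPM. Of 12 leukocyte markers, 11 were too low to test and CD3E, CD3D, MS4A1 and NKG7 were among those at 0. LYZ, the highest of these 11, had 52 counts in all 12 libraries together. LCP1 was detected, at 148.6 ± 80.4 CPM in irradiated knockdown cells and 140.4 ± 102.4 CPM in irradiated controls (SD, n = 3 each). The list, mostly LCP1, summed to 97.8 to 241.9 CPM in irradiated knockdown libraries and 78.0 to 259.1 CPM in irradiated controls. Of 12 fibroblast markers, COL1A2 and PDGFRA were at 0 and the list summed to 39.7 to 42.4 CPM in irradiated knockdown libraries and 33.1 to 36.3 CPM in irradiated controls. Among them COL3A1 averaged 2.56 ± 0.519 CPM in irradiated knockdown cells and 0.723 ± 0.290 CPM in irradiated controls (SD, n = 3 each; edgeR adjusted p = 0.154, DESeq2 adjusted p = 0.00589). The part of these markers in the results was not tested. Both irradiated libraries of replicate 1 stood apart from their groups. Their counts differed from the other 2 libraries of the group by a chi-square per gene of 59.1 or more, against 30.7 or less for every other pair of replicates. The knockdown results with irradiation are therefore also given without both of them, an alternative chosen after the data were seen.

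Levels are CPM scaled by the trimmed mean of M values (TMM), and log2 fold changes are knockdown over control with irradiation unless another comparison is named. That comparison was the one tested, since its fold changes did not choose the genes. Its libraries still entered the choice in part, through a limit on the mean level over all 12 libraries and through the shared fit. A gene was called at an edgeR quasi-likelihood p under 0.05 after Benjamini-Hochberg adjustment over all 17191 genes tested, and all 8 genes passed the filter on low counts. An exact 2-sided permutation test of 3 libraries against 3 cannot go below 0.1.

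NPPC encodes the precursor of C-type natriuretic peptide, a secreted hormone that raises cyclic GMP in target cells through the receptor NPR2 and is cleared by NPR3. The gene lies at chr2:231921820-231926403 on the minus strand (GRCh38) and has 3 exons in the merged annotation of the tables. The last 22 of its 126 codons encode the active hormone, and they are shown here as the product that the counted RNA can give. They span chr2:231925428-231925493 on the minus strand in GENCODE 29, and the stop codon that follows them is in capitals.
NPPC: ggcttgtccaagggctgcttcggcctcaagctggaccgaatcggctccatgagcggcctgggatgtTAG

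NPPC stood at 9.91, 5.59 and 5.12 CPM in the irradiated knockdown libraries, against 3.21, 0.994 and 0.720 CPM in the irradiated controls. The groups did not overlap, and replicate 1 was the highest library in both. In bulk RNA such as this, more cells with a transcript and more transcript per cell cannot be told apart. Its log2 fold change was 2.07 (SE 0.54, 95% CI 0.90 to 3.25), which did not pass the test (edgeR adjusted p = 0.204), and the exact permutation p was 0.1. With the replicate number as a block the value was 2.20 and passed (edgeR adjusted p = 0.00107). Without both irradiated libraries of replicate 1 it was 2.63 and passed (edgeR adjusted p = 0.0272), as it did at 2.99 without replicate 1 of the irradiated control alone (edgeR adjusted p = 0.0169). DESeq2 also called it (adjusted p = 0.00867). These were the only 4 of the 20 alternatives that called NPPC. It was not called with limma-voom (adjusted p = 0.145) or with no filter on low counts (edgeR adjusted p = 0.684). In a fit of the 6 irradiated libraries alone the edgeR adjusted p was 0.493. Without irradiation NPPC stood at 15.6, 25.0 and 23.4 CPM in knockdown libraries, against 1.32, 4.26 and 4.02 CPM in controls, a log2 fold change of 2.72. Irradiated knockdown cells thus held less NPPC RNA than non-irradiated ones, with no overlap of libraries and a log2 difference of -1.63. In controls the libraries of both irradiation states overlapped, with a log2 difference of -0.99. The 2 irradiation states come from separate count tables, so irradiation and any difference between the tables cannot be told apart, here and for every gene below.

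SYT4, synaptotagmin 4, is a membrane protein of secretory vesicles that takes part in regulated release in neurons and endocrine cells. It lies at chr18:43267878-43277650 on the minus strand, with 4 merged exons. SYT4 stood at 41.6, 77.5 and 72.0 CPM in the irradiated knockdown libraries, against 26.0, 29.7 and 29.5 CPM in the irradiated controls. Every knockdown library was above every control, and replicate 1 was the lowest of its group on both sides. The log2 fold change of 1.16 (SE 0.35, 95% CI 0.40 to 1.93) did not pass the test (edgeR adjusted p = 0.289). Without irradiation the values were 42.9, 107.3 and 99.0 CPM in knockdown libraries and 21.3, 17.3 and 9.72 CPM in controls, a log2 fold change of 2.37. Replicate 1 of the non-irradiated knockdown was far below the other two, close to the level of replicate 1 of the irradiated knockdown.

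LDOC1, whose name stands for leucine zipper downregulated in cancer 1, is a gene of the X chromosome that derives from the capsid gene of a retrotransposon. It consists of a single merged exon at chrX:141175745-141177125 on the minus strand. LDOC1 was the most abundant of the 8 per length of RNA, at 79.0 ± 10.1 CPM per kilobase in irradiated knockdown cells and 42.5 ± 12.4 CPM per kilobase in irradiated controls (SD, n = 3 each). Its irradiated knockdown libraries stood at 93.8, 112.3 and 121.3 CPM, against 78.2, 45.8 and 52.0 CPM in irradiated controls. Replicate 1 was the lowest knockdown library and the highest control library, and the groups still did not overlap. LDOC1 had a log2 fold change of 0.90 (SE 0.18, 95% CI 0.51 to 1.28), which did not pass (edgeR adjusted p = 0.0708). It was 1.25 without both irradiated libraries of replicate 1 (edgeR adjusted p = 7.4e-05) and 1.16 without replicate 1 of the irradiated control alone (edgeR adjusted p = 0.00100), and DESeq2 called the gene on all libraries (adjusted p = 0.00107). Of the 20 alternatives, 4 called LDOC1. It was not called with the replicate block (edgeR adjusted p = 0.0623) or with limma-voom (adjusted p = 0.0590). In a fit of the 6 irradiated libraries alone the edgeR adjusted p was 0.432. Without irradiation LDOC1 stood at 91.7, 103.6 and 98.4 CPM in knockdown libraries, against 40.7, 37.3 and 35.6 CPM in controls, a log2 fold change of 1.37 with a spread within groups of at most 6.87% of the mean.

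OTUD3 is a deubiquitinase of the ovarian tumour (OTU) family, enzymes that remove ubiquitin from other proteins. It lies at chr1:19882513-19912945 on the plus strand, with 9 merged exons. OTUD3 stood at 30.2, 38.6 and 39.1 CPM in the irradiated knockdown libraries, against 19.5, 19.0 and 17.2 CPM in the irradiated controls. The groups were well apart, and the controls differed among themselves by little. OTUD3 rose in the irradiated knockdown with a log2 fold change of 0.95 (SE 0.17, 95% CI 0.58 to 1.33, edgeR adjusted p = 0.0461). It was the single gene called higher in this comparison, 0.00582% of all genes tested, while 0.291% were called lower. The adjusted p was 0.0526 with library size as the only scaling, 0.0545 with limma-voom and 0.274 in a fit of the 6 irradiated libraries alone, so the call did not hold there. It was also lost on leaving out any one of 8 libraries, namely replicates 1 and 2 of the non-irradiated knockdown, 1 and 3 of the non-irradiated control, 2 and 3 of the irradiated knockdown, and 2 and 3 of the irradiated control, with adjusted p between 0.0686 and 0.259. The fold change itself kept within 0.88 and 1.10 over all 20 alternatives, and its adjusted p with the replicate block was 0.00037. Without irradiation OTUD3 stood at 49.9, 53.2 and 38.2 CPM in knockdown libraries, against 18.5, 24.9 and 17.3 CPM in controls, a log2 fold change of 1.22.

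NUAK2 is an AMPK-related protein kinase that the kinase LKB1 activates, and it acts on the actin-myosin skeleton. It lies at chr1:205302059-205321791 on the minus strand, with 7 merged exons, and 4.30% of the 50-base words of its transcripts occurred in another gene. NUAK2 stood at 11.0, 10.8 and 13.0 CPM in the irradiated knockdown libraries, against 10.5, 8.42 and 8.19 CPM in the irradiated controls. The groups did not overlap, but the lowest knockdown library lay just above the highest control. A log2 fold change of 0.36 (SE 0.19, 95% CI -0.05 to 0.77) did not pass the test (edgeR adjusted p = 0.598). Without irradiation the values were 9.10, 13.8 and 12.9 CPM in knockdown libraries and 5.97, 6.66 and 5.27 CPM in controls, a log2 fold change of 1.00.

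CDR2L is a close relative of CDR2 and is the antigen of the antibodies found in a paraneoplastic degeneration of the cerebellum. It lies at chr17:74987632-75005800 on the plus strand, with 5 merged exons. CDR2L stood at 26.8, 21.9 and 20.7 CPM in the irradiated knockdown libraries, against 24.0, 13.0 and 14.4 CPM in the irradiated controls. The groups overlapped through replicate 1 of the control, which was higher than 2 of the knockdown libraries. Its log2 fold change of 0.44 (SE 0.21, 95% CI -0.01 to 0.89) did not pass (edgeR adjusted p = 0.559), and the exact permutation p was 0.3. It was 0.48 with the replicate block (edgeR adjusted p = 0.0182) and 0.64 without both irradiated libraries of replicate 1 (edgeR adjusted p = 0.0328), and passed in both. Leaving out a single irradiated control moved it both ways, to 0.76 without replicate 1 (edgeR adjusted p = 0.0309) and to 0.25 without replicate 2 (edgeR adjusted p = 0.816). CDR2L was called in 3 of the 20 alternatives. Without irradiation CDR2L stood at 22.3, 24.9 and 22.5 CPM in knockdown libraries, against 9.24, 11.1 and 10.3 CPM in controls, a log2 fold change of 1.19.

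LRP5L is a short gene related to LRP5, a co-receptor for Wnt ligands, and little is known of its function. It lies at chr22:25351418-25405377 on the minus strand, with 7 merged exons. Because LRP5L resembles LRP5, reads could be shared between them. Their coding sequences were identical at 683 of 750 aligned bases, or 91.1%, with a longest identical run of 54 bases. The stretch that holds this run is shown for both genes as spliced coding sequence from GENCODE 29, with the 8 bases at which they differ in capitals; in the genome it spans chr22:25351890-25354696 on the minus strand for LRP5L and chr11:68403599-68406536 on the plus strand for LRP5.
LRP5L: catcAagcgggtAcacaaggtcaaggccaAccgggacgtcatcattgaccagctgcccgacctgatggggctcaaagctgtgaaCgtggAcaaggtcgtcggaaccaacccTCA
LRP5: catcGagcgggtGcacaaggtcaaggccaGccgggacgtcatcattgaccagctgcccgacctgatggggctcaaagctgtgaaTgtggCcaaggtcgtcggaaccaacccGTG

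Over all LRP5L transcripts, 0.123% of the 50-base words occurred in another gene. LRP5L stood at 15.8, 10.9 and 14.5 CPM in the irradiated knockdown libraries, against 13.3, 8.42 and 9.93 CPM in the irradiated controls. The groups overlapped, since replicate 1 of the control was above replicate 2 of the knockdown. The log2 fold change of 0.38 (SE 0.21, 95% CI -0.07 to 0.84) did not pass (edgeR adjusted p = 0.616), and the exact permutation p was 0.2. It ran from 0.22 without replicate 2 of the irradiated control (edgeR adjusted p = 0.837) to 0.58 without replicate 1 of that group (edgeR adjusted p = 0.181), and was 0.25 without replicate 1 of the irradiated knockdown (edgeR adjusted p = 0.706). Without irradiation LRP5L stood at 17.2, 14.2 and 14.9 CPM in knockdown libraries, against 8.11, 6.20 and 8.95 CPM in controls, a log2 fold change of 0.99. LRP5 itself had a log2 fold change of 0.06 with irradiation (edgeR adjusted p = 0.932) and 0.28 without (edgeR adjusted p = 0.234).

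NWD1 carries a NACHT nucleotide-binding domain and WD repeats and has been described as a modulator of androgen receptor signalling in prostate cancer cells. It lies at chr19:16719976-16817963 on the plus strand, with 22 merged exons. NWD1 had the lowest level of the 8 per length, at 0.873 ± 0.096 CPM per kilobase in irradiated knockdown cells and 0.596 ± 0.057 CPM per kilobase in irradiated controls (SD, n = 3 each). Its irradiated knockdown libraries stood at 7.34, 6.65 and 8.27 CPM, against 5.31, 4.51 and 5.38 CPM in irradiated controls. The groups did not overlap and both were tight. The log2 fold change of 0.55 (SE 0.16, 95% CI 0.20 to 0.90) did not pass (edgeR adjusted p = 0.280), but passed at the same size with the replicate block (edgeR adjusted p = 0.0180). That was the only 1 of the 20 alternatives that called NWD1. Without irradiation NWD1 stood at 6.51, 5.54 and 6.61 CPM in knockdown libraries, against 3.27, 3.04 and 3.21 CPM in controls, a log2 fold change of 0.97. That value was just inside the limit that chose the genes, and ANXA9 at 0.95 was just outside it. The limit was the 10 largest fold changes among called genes whose groups did not overlap and that averaged 5 CPM or more over all 12 libraries. NWD1 averaged 5.47 CPM over these, with 6.22 and 3.17 CPM in non-irradiated knockdown cells and controls and 7.42 and 5.07 CPM in irradiated ones. It thus reached 5 CPM only with the irradiated libraries included. RP11-693J15.6 and TDP1 also lay within the first 10 and are not among the 8 genes.

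**Figure D1:**
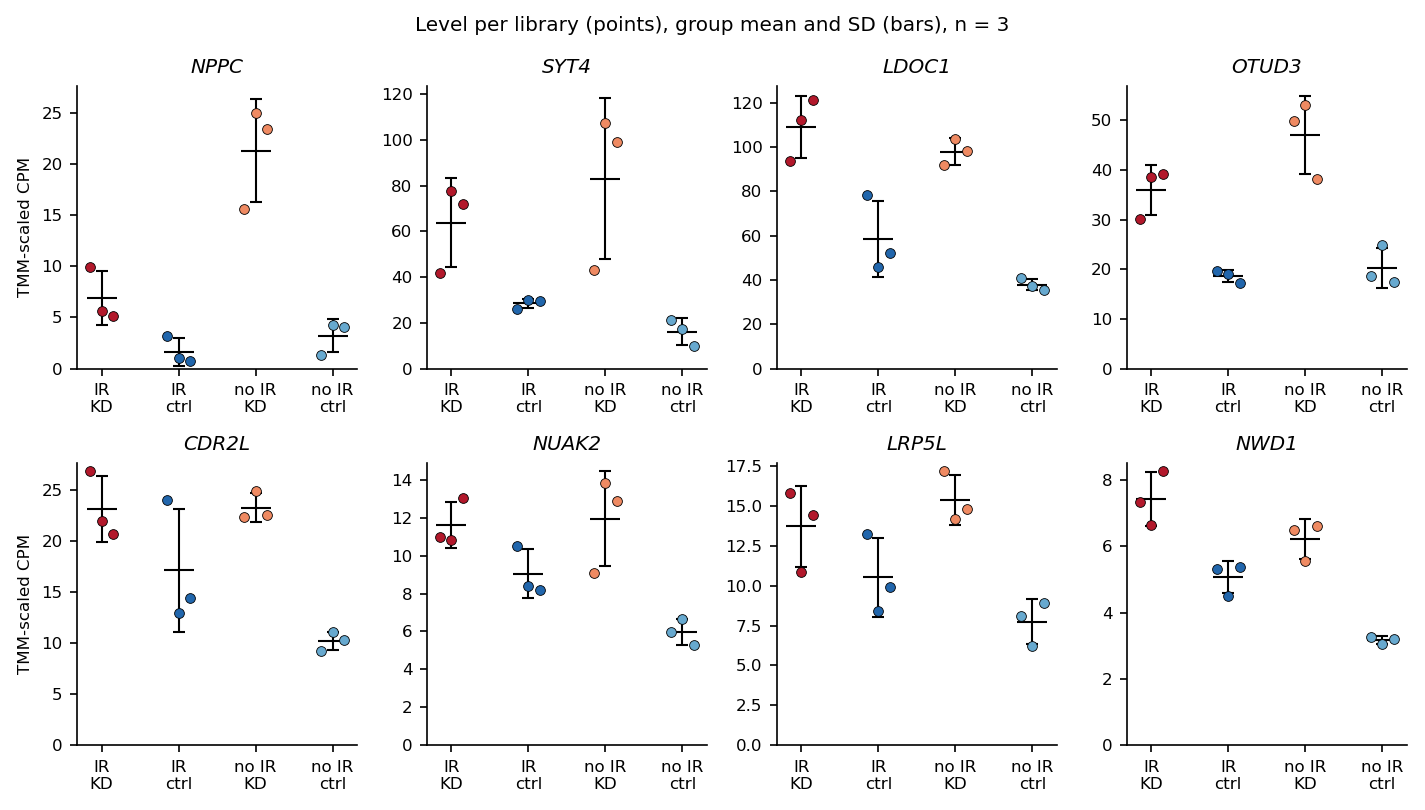
TMM-scaled CPM of each gene in each of the 12 libraries (points), with the mean and SD of each group of 3 (bars); KD is knockdown, ctrl is control and IR is irradiated. Every gene's non-irradiated knockdown libraries lie above its controls, as the choice of genes fixed, while with irradiation the groups of CDR2L and LRP5L overlap.

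With irradiation all 8 genes had a positive log2 fold change, as did 49.1% of all genes tested. Their median was 0.72, against -0.01 for all genes. In 6 of the 8, all but CDR2L and LRP5L, every knockdown library was above every control, as in 5.82% of all genes. Only OTUD3 was called by the unblocked edgeR fit. The replicate block called 4 of the 8 (NPPC, OTUD3, CDR2L and NWD1), where it called 5.43% of all genes higher. DESeq2 called 3 (NPPC, LDOC1 and OTUD3), where it called 0.436% higher. Without both irradiated libraries of replicate 1, 4 were called (NPPC, LDOC1, OTUD3 and CDR2L), where 0.366% of genes were called higher. SYT4, NUAK2 and LRP5L were called in none of the 20 alternatives, with lowest adjusted p of 0.0537, 0.136 and 0.0531. With the replicate block their edgeR adjusted p were 0.219, 0.136 and 0.0531. Without irradiation, where the genes were chosen, 8 of 8 were called higher and 8 of 8 were separated, against 0.337% and 15.4% of all genes, and 1.20% of genes were called lower.

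**Figure D2:**
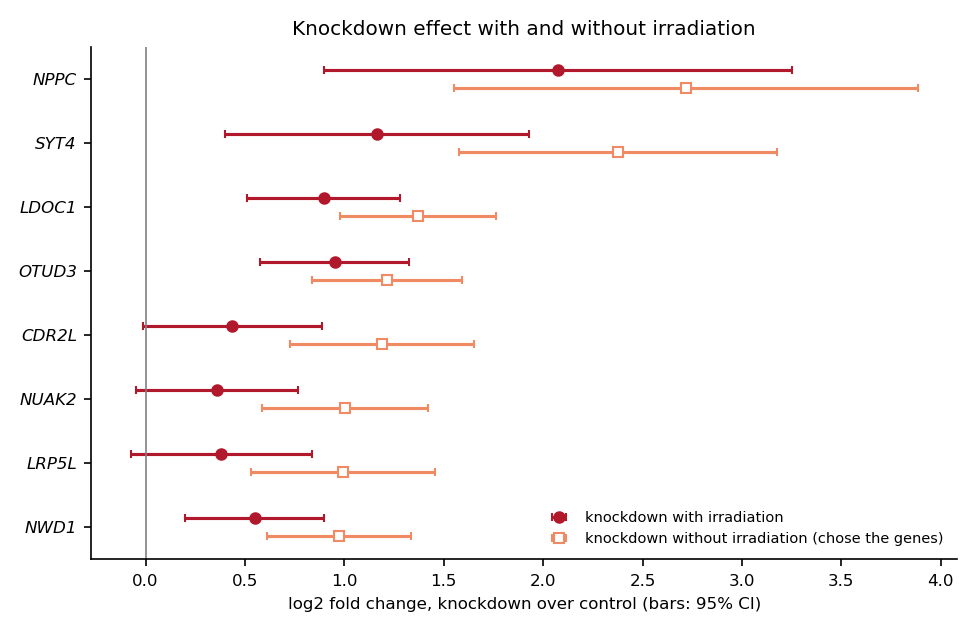
Log2 fold change of knockdown over control for each gene with irradiation (filled) and without (open, the comparison that chose the genes), with 95% confidence intervals from the edgeR fit. All 8 filled points lie to the right of 0 and to the left of their open partners; the intervals of CDR2L, NUAK2 and LRP5L with irradiation include 0.

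The fold changes were smaller with irradiation than without in all 8 genes, which is given as a description since the comparison without irradiation chose the genes for being high. The difference in log2 fold change was -1.21 for SYT4, -0.75 for CDR2L, -0.64 for NPPC and for NUAK2, -0.61 for LRP5L, -0.47 for LDOC1, -0.42 for NWD1 and -0.26 for OTUD3. No interval or test is given for these differences, since they hold the values that chose the genes. Irradiated controls were above non-irradiated controls in 6 of the 8 genes and in 49.5% of all genes, with a median log2 difference over the 8 of 0.62. All 3 irradiated controls were above all 3 non-irradiated ones in SYT4, LDOC1, CDR2L, NUAK2 and NWD1, as in 13.7% of all genes. SYT4 differed by 0.83, CDR2L by 0.74, NWD1 by 0.68, LDOC1 by 0.63 and NUAK2 by 0.60. Irradiated knockdown cells were above non-irradiated ones in only LDOC1 (0.16) and NWD1 (0.25), with a median of -0.11 over the 8. These irradiation values share libraries with the comparison that chose the genes and carry no test.

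The order of the 4 groups by mean level was the same for SYT4, CDR2L, NUAK2 and LRP5L: non-irradiated control lowest, then irradiated control, irradiated knockdown and non-irradiated knockdown. In these 4 genes the libraries of the 2 knockdown groups overlapped, as in 70.2% of all genes. LDOC1 and NWD1 were also lowest in non-irradiated controls but highest in irradiated knockdown cells. In NWD1 every neighbouring pair of groups was free of overlap, as in 0.303% of all genes. The choice of genes had already set non-irradiated knockdown libraries above their controls. Part of every such order was thus fixed, and the share of all genes is no test of it. NPPC and OTUD3 were lowest in irradiated controls and highest in non-irradiated knockdown cells. In both, the 2 control groups overlapped. Per length, NPPC ranked at the 61.2 percentile of all tested genes in irradiated knockdown cells and at the 32.3 percentile in irradiated controls. LDOC1 moved little in rank, at the 97.4 percentile in irradiated knockdown cells and the 94.1 percentile in irradiated controls, since it was abundant in both.

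Knockdown and control libraries of the same number were also set against each other, as differences in log2 CPM after adding a prior count of 2. All 8 genes were higher in the knockdown library in all 6 pairs, as were 14.5% of all genes. The choice of genes largely fixed this for the non-irradiated pairs, so that share is no fair background. Over the 3 irradiated pairs alone, whose differences did not choose the genes, the share of all genes was 26.0%. In pair 1 of the irradiated cells the difference was the smallest of the 6 pairs for each of the 8 genes, with NUAK2 at 0.06, CDR2L at 0.16 and LDOC1 at 0.26. In irradiated pairs 2 and 3, LDOC1 differed by 1.29 and 1.22, OTUD3 by 1.02 and 1.18, and NPPC by 2.40 and 2.70. SYT4 varied most between pairs, at 0.67, 1.38 and 1.29 with irradiation and 1.01, 2.63 and 3.34 without.

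Genes of the cell cycle differed between the same pairs. The mean of 34 G2/M and mitosis genes differed by -0.69, -1.26 and -1.20 in the irradiated pairs, and by -0.95, 2.61 and 1.93 in the non-irradiated pairs. The mean of 33 DNA replication genes differed by -0.65, -0.11 and -0.06 with irradiation and by 0.09, 1.48 and 1.24 without. The mitosis list was thus negative in all 3 irradiated pairs and in 1 of the 3 non-irradiated pairs. In the non-irradiated cells, SYT4, LDOC1 and NUAK2 had their smallest differences in pair 1, the pair in which the mitosis genes were lower in the knockdown library, and NPPC, OTUD3 and CDR2L had their largest there. The part of cell cycle state in the fold changes was not tested.

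**Figure D3:**
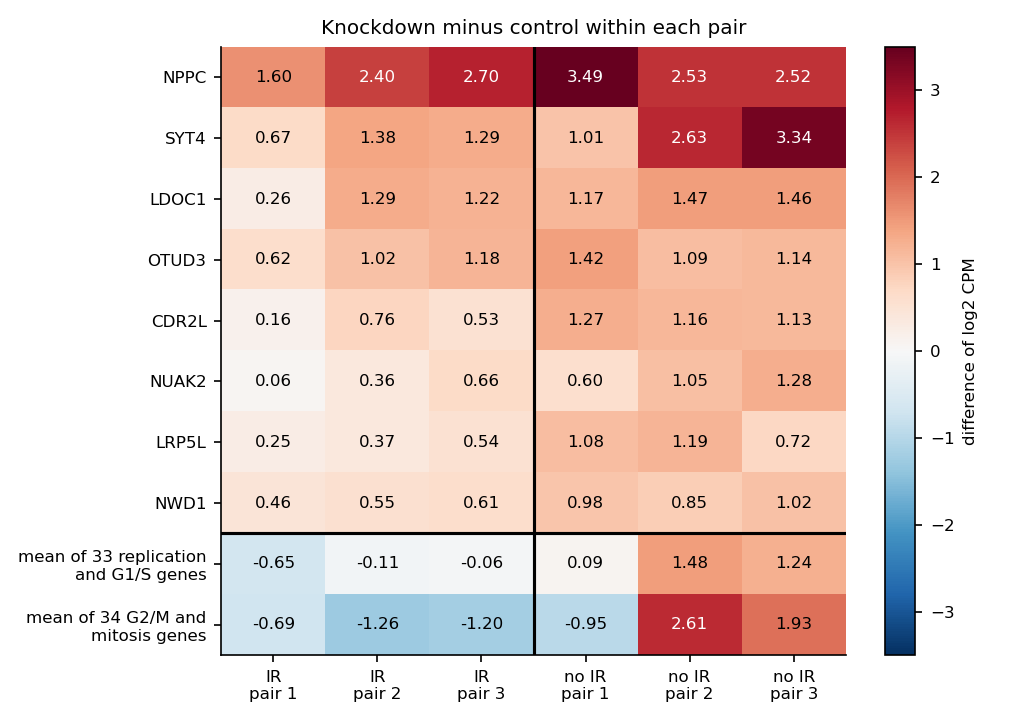
Difference of log2 CPM, knockdown minus control, within each of the 3 irradiated and 3 non-irradiated pairs, for the 8 genes and for the means of 2 cell cycle lists; red is higher in the knockdown library and blue is lower. Every square of the 8 genes is positive, which the choice of genes largely fixed for the non-irradiated pairs; the mitosis list is negative in the 3 irradiated pairs and in non-irradiated pair 1.

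The relatives and partners of each gene were read from lists of their families. Of all genes tested, 3.48% were higher and 5.80% lower with irradiation at an unadjusted p under 0.05, and 7.62% were higher and 9.82% lower without, against which the counts at that limit are to be read. In the natriuretic peptide system, NPPC was the only hormone gene with counts: NPPA and NPPB were at 0 in all 12 libraries. The receptors NPR1, NPR2 and NPR3 had 15, 31 and 39 counts in all 12 libraries together and were too low to test. MME, the membrane protease neprilysin that degrades natriuretic peptides, was abundant, at 1421 ± 356 CPM in irradiated knockdown cells and 1188 ± 271 CPM in irradiated controls (SD, n = 3 each; log2 fold change 0.26, edgeR adjusted p = 0.901). Of the 6 tested genes besides NPPC, edgeR called 0 in either direction, 1 was lower at an unadjusted p under 0.05, and DESeq2 called 0.

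Of 22 synaptotagmins and synaptotagmin-like genes, 9 were tested. Of the 8 other than SYT4, edgeR called 0 with irradiation, 1 was lower at an unadjusted p under 0.05, and DESeq2 called 0. Without irradiation DESeq2 called 0 higher and 1 lower, SYTL5, with a log2 fold change of -2.91 (edgeR adjusted p = 0.116). SYTL5 was low, at means of 0.455 CPM in non-irradiated knockdown cells and 3.45 CPM in non-irradiated controls. Its log2 fold change with irradiation was -2.53 (edgeR adjusted p = 0.404). The proteins of vesicle docking and fusion, with which synaptotagmins work, gave 0 genes called higher by edgeR or DESeq2 among 23 tested. At an unadjusted p under 0.05, 1 was higher and 2 were lower with irradiation, and 2 were higher and 3 lower without. DESeq2 called 1 lower with irradiation (VAMP3) and 2 lower without (VAMP3 and RIMS1), beside 265 and 1034 of all genes in either direction. VAMP3, a vesicle SNARE, averaged 63.2 ± 3.60 CPM in irradiated knockdown cells and 93.1 ± 8.07 CPM in irradiated controls, a log2 fold change of -0.56 (edgeR adjusted p = 0.0583, DESeq2 adjusted p = 0.000317). It fell without irradiation, by 0.56 on the log2 scale (edgeR adjusted p = 0.0279), at 56.8 ± 4.01 CPM in non-irradiated knockdown cells and 83.9 ± 5.95 CPM in non-irradiated controls. RIMS1, a scaffold of the release site, also fell without irradiation, by 0.94 (edgeR adjusted p = 0.0336), at 19.1 ± 3.69 CPM in non-irradiated knockdown cells and 36.7 ± 8.84 CPM in non-irradiated controls (SD, n = 3 each). With irradiation its log2 fold change was -0.60 (edgeR adjusted p = 0.303). RAB3B, the most abundant gene of that list, had a log2 fold change of -0.22 with irradiation (edgeR adjusted p = 0.787).

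Since SYT4 is also expressed in neuroendocrine cells, markers of that cell type were read beside it. Of 16 neuroendocrine genes, 12 were too low to test; CHGA, which encodes chromogranin A, had 1 count in all libraries together, and PCSK2, NEUROD1 and STMN2 had 0. Summed over the 16, the markers ran from 104.0 to 156.9 CPM in irradiated knockdown libraries and from 120.2 to 176.4 CPM in irradiated controls. Without irradiation they ran from 148.4 to 175.0 CPM in knockdown libraries and from 167.6 to 195.2 CPM in controls. Of the 4 tested (SYP, ENO2, CPE and PAM), edgeR and DESeq2 called 0 in either comparison, and at an unadjusted p under 0.05 there were 0 with irradiation and 1 without, CPE, which was lower. CPE was the most abundant of the 4, with a log2 fold change of -0.23 with irradiation (edgeR adjusted p = 0.730).

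Of 14 other OTU deubiquitinases tested with irradiation, 11 had a positive log2 fold change, the highest being 0.25 for OTUD7B (edgeR adjusted p = 0.619), the most abundant of the list. EdgeR and DESeq2 called 0 of them, and 0 had an unadjusted p under 0.05. Of 15 AMPK-related kinases besides NUAK2, 8 were positive with irradiation, and again 0 were called by edgeR or DESeq2 and 0 had an unadjusted p under 0.05. PRKAA1, the most abundant, had a log2 fold change of 0.16 (edgeR adjusted p = 0.909). Without irradiation DESeq2 called 0 of the 15 higher and 1 lower, PRKAA2 (log2 fold change -1.26, edgeR adjusted p = 0.0927). Of 18 counted target genes of the transcriptional coactivator YAP, 11 were tested. The others were too low, among them CTGF, ANKRD1 and AXL with 2, 1 and 0 counts in all 12 libraries together. Of the 11, edgeR and DESeq2 called 0 with irradiation and 1 was lower at an unadjusted p under 0.05. WWC1, the most abundant, had a log2 fold change of -0.04 (edgeR adjusted p = 0.973). Without irradiation DESeq2 called 0 of the 11 higher and 1 lower, CRIM1 (log2 fold change -1.59, edgeR adjusted p = 0.0879).

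LDOC1L, the nearest namesake of LDOC1 and the most abundant of its list, had a log2 fold change of 0.09 with irradiation (edgeR adjusted p = 0.823), and edgeR and DESeq2 called 0 of the 8 other retrotransposon-derived capsid genes tested, with 0 at an unadjusted p under 0.05. CDR2 had a log2 fold change of -0.12 (edgeR adjusted p = 0.849), and CDR1 had 1 count in all libraries together. Among 11 other genes of the LDL receptor family, 3 were lower at an unadjusted p under 0.05 with irradiation and edgeR and DESeq2 called 0. LRP10, the most abundant, had a log2 fold change of -0.09 (edgeR adjusted p = 0.945). Of 8 other NACHT and WD repeat genes, edgeR and DESeq2 called 0, with 0 at an unadjusted p under 0.05, and the most abundant, NLRP2, had a log2 fold change of 0.22 (edgeR adjusted p = 0.665). Of 16 androgen receptor target genes, read beside NWD1, edgeR and DESeq2 called 0 with irradiation and 1 was lower at an unadjusted p under 0.05. Only 3 of the 16 had a positive log2 fold change with irradiation, and their median was -0.21, against -0.01 for all genes. The list was not tested as a set. KLK3, which encodes prostate-specific antigen, had a log2 fold change of -0.23 (edgeR adjusted p = 0.731). Without irradiation 8 of the 16 were positive, with a median of -0.03. There DESeq2 called 0 higher and 1 lower, HERC3 (log2 fold change -1.42, edgeR adjusted p = 0.0695).

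**Figure D4:**
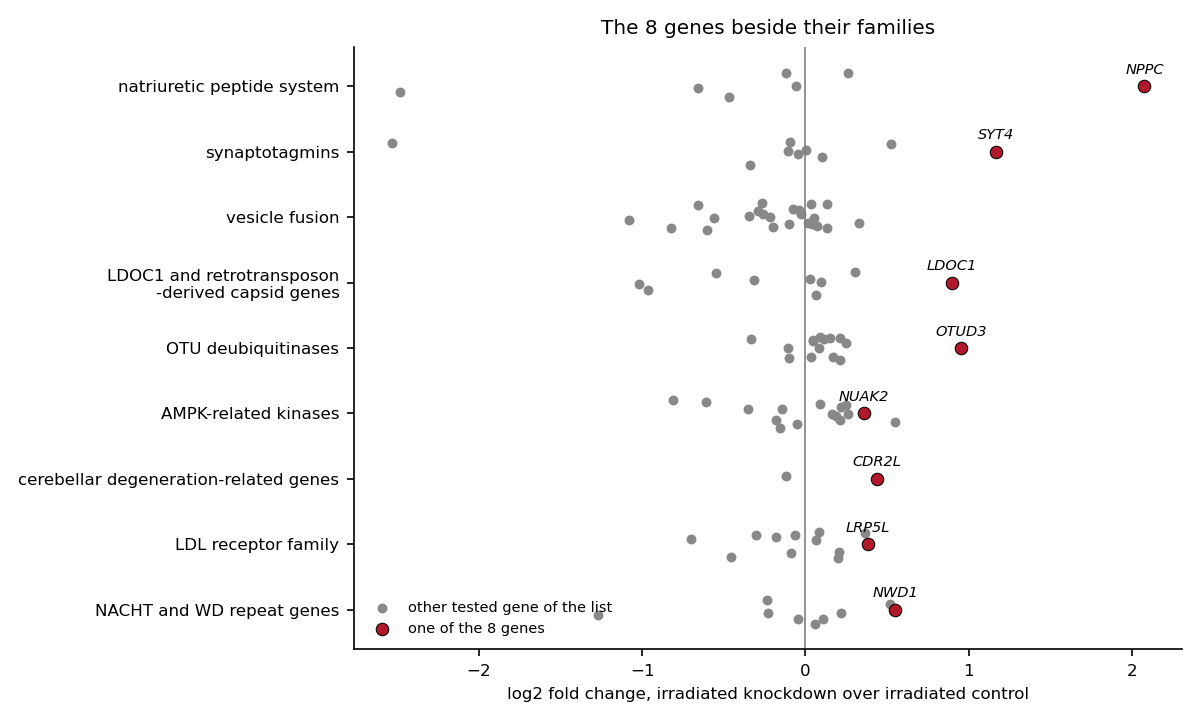
Log2 fold change of irradiated knockdown over irradiated control for each tested gene of 9 family lists (grey) with the 8 genes (red). NPPC, SYT4, LDOC1, OTUD3, CDR2L, LRP5L and NWD1 lie to the right of every other gene of their family, and SYT4 also of the vesicle fusion list, while NUAK2 lies among the AMPK-related kinases. For 2 of them the margin is far below the errors: LRP5L at 0.38 is next to LRP4 at 0.36 (SE 0.84), and NWD1 at 0.55 is next to NAIP at 0.51 (SE 0.31).

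Promoters were read for the 8 genes as a description. The genes were chosen for being higher in non-irradiated knockdown cells, so their rise together there was fixed by the choice. The RefSeq table (GRCh38.p14) held a promoter for 5 of them, NPPC, SYT4, LDOC1, OTUD3 and NUAK2. The 250 bases before each start were searched on both strands for 6 motifs. The GC box, searched as the letters GGGCGG, was in 4 of the 5, all but SYT4, and in 42.6% of all 35116 promoters of the table. The TATA box, with the letters TATAAA, was in NPPC and NUAK2 and in 10.7% of all promoters. The CCAAT motif was in the same genes and in 32.0% of all promoters. A motif of the TEAD factors, GGAATG, was in NUAK2 alone, at 2 positions, and in 11.9% of all promoters. An E-box of the letters CACGTG was in 0 of the 5 windows and in 6.34% of all promoters. The core of the cyclic AMP response element, searched as TGACGT, was also in 0 of the 5 windows and in 7.10% of all promoters. The 150 bases before the start are shown for NPPC, LDOC1 and OTUD3, with motif matches on either strand in capitals. These windows hold at most 7 exon bases of the tables' annotation, whereas those of SYT4 and NUAK2 hold 150 and 46 and are not shown. They lie at chr2:231926397-231926546 (minus strand) for NPPC, chrX:141177130-141177279 (minus strand) for LDOC1 and chr1:19882245-19882394 (plus strand) for OTUD3.
NPPC: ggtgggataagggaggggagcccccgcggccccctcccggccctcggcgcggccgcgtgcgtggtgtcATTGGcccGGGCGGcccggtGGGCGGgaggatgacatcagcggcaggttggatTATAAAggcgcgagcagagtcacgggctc
LDOC1: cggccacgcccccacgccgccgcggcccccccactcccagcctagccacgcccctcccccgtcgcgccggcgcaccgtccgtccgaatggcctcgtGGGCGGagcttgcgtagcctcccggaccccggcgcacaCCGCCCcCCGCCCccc
OTUD3: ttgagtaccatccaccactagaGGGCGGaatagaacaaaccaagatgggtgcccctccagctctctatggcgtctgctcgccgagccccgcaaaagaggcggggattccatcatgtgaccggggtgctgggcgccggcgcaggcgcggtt

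NPPC and LDOC1 had GC-rich promoters, with 72.0% and 73.2% of the 250 bases being G or C and 28 and 29 CpG pairs, against medians of 58.0% and 11 over all promoters. OTUD3 was close to the median in base composition, at 57.6% and 15 CpG pairs. SYT4 lay below it, at 52.8% and 8, and NUAK2 above it, at 66.4% and 20. None of the 6 motifs was in all 5 windows, and the base composition of the windows differed. SYT4 alone lacked the GC box, and the 150 bases next to its start lie in exons of the merged annotation. Its window is thus not all upstream sequence.

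The 2 genes whose log2 CPM followed each of the 8 best over the 12 libraries were sought among 11187 genes that averaged 5 CPM or more, the other members included. These correlations are descriptions over libraries that share the 4 groups. The closest was ZBED4 to NWD1 (Pearson r = 0.98), followed by ZNF746 to NWD1 (0.97), ZBTB7A to CDR2L (0.97) and LSR to CDR2L (0.97). LZTS2 and SPRYD4 followed LDOC1 (both 0.95), PLCG1 and MAGEA3 followed NPPC (0.95 and 0.94), and GUSBP1 and PRICKLE4 followed SYT4 (0.94 and 0.93). MUM1 and CTA-29F11.1 followed OTUD3 (both 0.94), CLDN4 and RRAS followed NUAK2 (both 0.94), and ACOT11 and PHRF1 followed LRP5L (both 0.93). No member was among the 2 closest genes of another.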

How the data were processed

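Per the labels' protocols, RNA was extracted with Trizol and the libraries were made from polyadenylated RNA. The authors deposited raw counts of each gene as a table for each irradiation state, 6 libraries in each. The submitters' processing notes list the build GRCh38 and, as tools, edgeR 3.20.8, featureCounts, STAR 2.5 and Subread 1.5.3. Strand and multi-mapping settings were not given in the sources used here. Genes were kept by filterByExpr (minimum count 10) and fitted with edgeR 4.0.16 (TMM, robust quasi-likelihood, 1 mean per group over all 12 libraries), which was tested on simulated data; adjusted p-values are Benjamini-Hochberg over 17191 genes. Alternatives used DESeq2 1.42.0, limma 3.58.1 (voom), other scalings, no filter, a replicate block and leaving out libraries. Deviations from the group means of same-numbered libraries correlated at 0.23 to 0.30 without and 0.61 to 0.78 with irradiation, each best with its own number. Replicate numbers were therefore taken to pair the samples within a table. The labels do not say what a number stands for. The main fit and the exact permutation test leave this pairing out, whereas the replicate block uses it. The 8 genes and all lists were chosen with earlier results of these data known. Named genes are the 8, PRMT5, called relatives, the most abundant gene of each list and the 2 genes most alike to each of the 8; other genes were named after their values were seen. No sample column was left out.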

Additional observations from a re-analysis of the deposited data

How the results depend on the processing

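No fold change of the 8 genes changed sign under any alternative. Gene totals in this section count calls in either direction, whereas the counts of the 8 are calls higher. With irradiation, 51 genes were called, 1 of them higher, and 1 of the 8. The counts were 265 genes (75 higher, 0.436% of genes tested) and 3 of the 8 with DESeq2. They were 1 gene and 0 of the 8 in a fit of only the 6 libraries compared. The replicate block gave 1974 genes (934 higher, 5.43%) and 4 of the 8. Without both irradiated libraries of replicate 1 (pair 1) there were 326 genes (64 higher, 0.366%) and 4 of the 8. Of the 8 genes, 0 were called with library size only (47 genes in all), 0 with limma-voom (49 genes) and 2 with no filter on low counts (70 genes). Without irradiation 265 genes were called, against 1034 with DESeq2, 1486 in the 6 libraries alone, 4776 with the block and 2564 without the irradiated pair 1. Leaving out 1 library at a time gave 4 to 254 genes and 0 to 4 of the 8 with irradiation, and 31 to 989 genes without. The 254 and 989 arose without replicate 1 of the irradiated control, the 4 without replicate 3 of the irradiated knockdown, and the 31 without replicate 2 of the non-irradiated knockdown. The replicate block changed the call of NPPC, CDR2L and NWD1 and of none of the other 5 genes. The cause of these changes was not tested.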
